A study of Dicentrarchus labrax with 10 samples.

Results

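The 217 transcripts described here are the abundant members of clone library 28 on a European sea bass array, measured in the gonads of 10 fish. Library 28 is the set of array transcripts whose names start with cDN28P, and the remaining characters of a name were read here as plate and well. A transcript was kept when its brightest probe was well above background on all 10 arrays and its mean log2 intensity, relative to each array's 75th percentile, was above 0 and at most 6. Of 11705 transcripts on the array, 953 carried a library 28 name, and 217 of these met the rule. The same level rule, without the condition on the library, kept 3073 transcripts. Membership rested on detection and on the mean over all fish, so the members' levels are given as a description. The difference between the groups was not used by the rule.

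The European sea bass (Dicentrarchus labrax) is a marine fish in which both genes and the temperature of early life influence sex, and warm early rearing is known to favour males. Estradiol is a natural estrogen that feminizes the developing gonad of many fishes when given in the food. A cDNA clone library is made by copying messenger RNA into DNA and cloning it, and the clones that are sequenced give short stretches of expressed genes from which array probes can be designed. The sources used here do not name the tissue that library 28 came from. Gene symbols were not used here, so the members are called by their clone names without the closing .F.ab1, and no role is given to any of them.

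Larvae of each group were held in 1 tank at 17 °C until 20 days post hatch (dph). The low temperature group, LTE2, was then kept at 15 °C and the high temperature group, HTE2, at 21 °C until 60 dph, after which the LTE2 tank was also warmed to 21 °C. All fish of both groups ate food carrying estradiol from 90 to 154 dph, and fish without estradiol were not analysed here. Part of a gonad was taken at 170 dph from each of 5 fish per group, all labelled as putative females. With 1 tank for each temperature, tank and temperature cannot be told apart. Because whole gonad tissue was measured, fewer cells of a type and less RNA per cell cannot be told apart in any value below. Gonad and cell type markers were not checked, since no gene symbols were used.

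Each fish was measured on 1 array with 1 dye, and the LTE2 and HTE2 fish of the same replicate number shared a slide. Within every slide the LTE2 array lay at place 3 and the HTE2 array at place 4, so that an effect of place cannot be told apart from one of group. The HTE2 arrays were brighter, with a 75th percentile intensity of 936.3 ± 304.3 (SD, n = 5) against 525.1 ± 174.2 (SD, n = 5) for the LTE2 arrays. The number of probes well above background lay between 17692 and 20848 per array. Spots flagged as outliers by the scanner software numbered 377 and 385 on the LTE2 and HTE2 arrays of slide 1. On each other array they numbered 24 to 66. All levels below are log2 intensities relative to the array's own 75th percentile, so that 0 is the brightness of the spot that outshines 75% of the array. A probe's brightness depends on its sequence as well as on its transcript, and the levels of different members are therefore not ranked as amounts of RNA.

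The members spanned a wide range of brightness. Their mean level over the 10 fish had a median of 1.25 (quartiles 0.69 and 2.18) and ran from 0.019 to 5.23. A level above 1 was reached by 132 members, above 2 by 59, above 3 by 24 and above 4 by 6. Of the 953 library 28 transcripts, 639 were detected on all arrays, 206 on some arrays and 108 on none. Among the 639, the level limits left out 420 at or below 0 and 2 above 6. Just outside the lower limit lay cDN28P0003J23 at -0.0087 and cDN28P0001P03 at -0.00015, and just inside it cDN28P0006D18 at 0.0067 and cDN28P0004L04 at 0.011. Just inside the upper limit lay cDN28P0005M03 at 4.72 and cDN28P0003M03 at 5.21, and just outside it cDN28P0004N04 at 6.58 and cDN28P0003J09 at 7.53. These values near the limits were computed with all spots, as the rule states, whereas spots that the scanner software flagged as outliers were left out of all other values.

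Relative to each array's 75th percentile, the members were brighter in the typical LTE2 fish than in the typical HTE2 fish. The exception was 1 HTE2 fish. The direction depended on this scaling, and after spike-in scaling the members' median log2 difference, HTE2 minus LTE2, was 0.49. The median level of the members was 1.49, 1.43, 1.46, 1.57 and 1.62 in LTE2 replicates 1 to 5, and 1.07, 1.04, 1.50, 0.55 and 1.06 in HTE2 replicates 1 to 5. HTE2 replicate 3 therefore lay within the LTE2 range, and HTE2 replicate 4 lay below every other fish. The fish medians of the LTE2 group averaged 1.52 ± 0.076 (SD, n = 5) and those of the HTE2 group 1.05 ± 0.34 (SD, n = 5). The lowest of a member's 10 values was found in HTE2 replicate 4 for 120 of the 217 members, whose array was also the brightest with a 75th percentile of 1392. The highest value was found most often in LTE2 replicate 5 (59 members), LTE2 replicate 4 (34) and HTE2 replicate 3 (31). Over all 9909 tested transcripts the fish medians ran from -1.57 in HTE2 replicate 4 to -1.10 in LTE2 replicate 1, the array with the dimmest 75th percentile (232.8). The part of array brightness in these differences was not tested at the level of single fish.

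**Figure D1:**
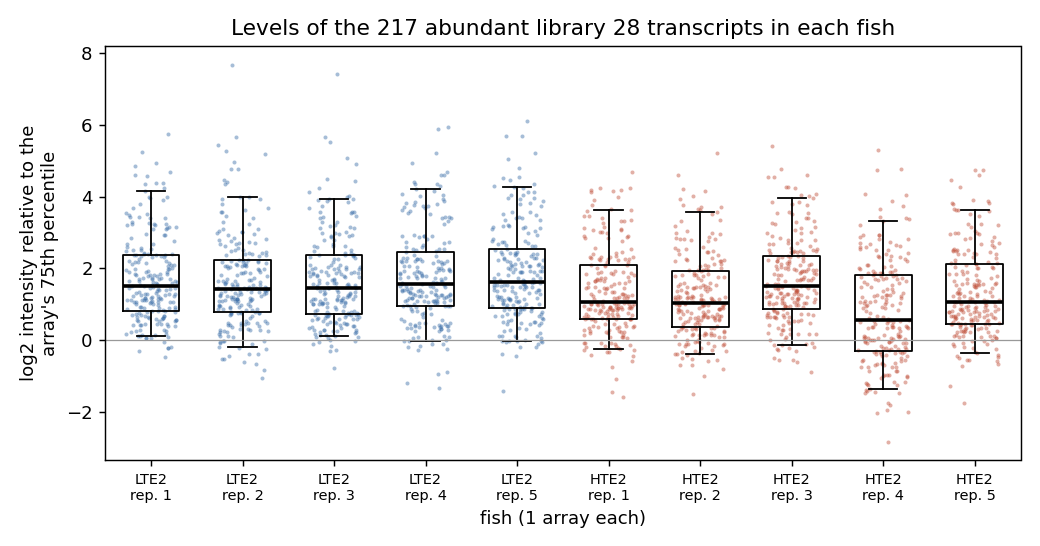
Log2 level of the 217 members in each fish (points), relative to the array's 75th percentile, with the median and quartiles (box) and the 5th and 95th percentiles (whiskers). The box of HTE2 replicate 3 (median 1.50) lies beside the LTE2 boxes, and that of HTE2 replicate 4 (median 0.55) is the lowest.

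The contrast of HTE2 with LTE2 asks how early temperature relates to the gonad transcriptome of estradiol-fed fish. After scaling to the 75th percentile, 43 of the 217 members fell and 12 rose in HTE2 at a limma adjusted p under 0.05, and 14 of the 43 had a difference above 0 after scaling to the spike-in RNA instead. The 55 called members are 25.3% of the members, and the share called among all 9909 tested transcripts was also 25.3%. Among all 3073 transcripts that met the same level rule, the share called was 30.4%. The share lower in HTE2 was 19.8% of members, beside 14.6% of all tested transcripts and 17.5% of those that met the level rule. The share higher was 5.53%, beside 10.7% and 12.9%. At an unadjusted p under 0.05, 110 members (50.7%) passed, beside 42.7% of all tested transcripts. Whether the members' balance of falls and rises differs from that of other transcripts was not tested.

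The members' log2 difference, HTE2 minus LTE2, had a median of -0.56 (quartiles -0.91 and -0.06) and ran from -3.37 to 2.47. The median over all tested transcripts was -0.27. Without HTE2 replicate 4 these medians were -0.37 and -0.18, and with array brightness as a covariate -0.32 and -0.10. Of the members, 166 (76.5%) had a difference below 0 and 51 above 0. Below 0 were also 63.5% of all tested transcripts and 63.7% of those that met the same level rule. Scaling mattered to these signs. Spike-in scaling, over 7 spike-in probes, raised the median of all tested transcripts to 0.77 and that of the members to 0.49. It moves all transcripts of an array by the same amount, so the distance between these medians could not change. With normexp background correction the medians were -0.38 for the members and -0.51 for all transcripts, so that there the members lay 0.13 above all transcripts. In the authors' deposited table they were -0.45 and -0.11.

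**Figure D2:**
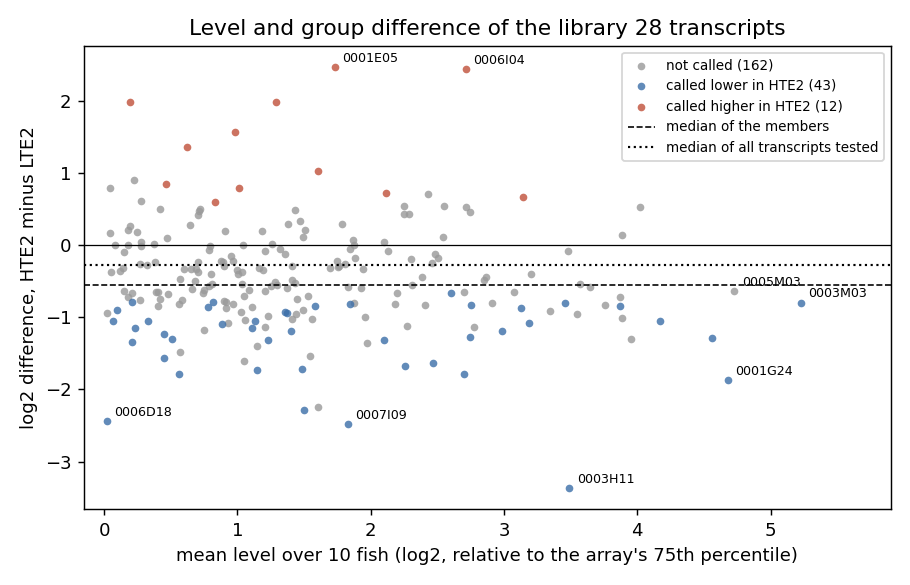
Mean log2 level of each member over 10 fish against its log2 difference, HTE2 minus LTE2, with the 43 called lower in blue, the 12 called higher in red and 162 uncalled members in grey, all after 75th percentile scaling. Called falls occur at all levels, the median of the members (-0.56, dashed) lies below that of all tested transcripts (-0.27, dotted), and under spike-in scaling both medians and 14 of the 43 falls turn to above 0.

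Groups without overlap were found for 37 members, 28 with every HTE2 fish below every LTE2 fish and 9 with every HTE2 fish above. These are 12.9% and 4.15% of the members, beside 9.46% and 4.09% of all tested transcripts. Among all transcripts that met the same level rule the shares were 11.1% and 5.79%. Among the 55 called members 27 had groups without overlap. That share was not computed for the called transcripts outside the members. Calls and overlap rest on the same values, so the count is a description. The called falls had a median fold of 2.22, with 29 over 2-fold and 4 over 4-fold. The called rises had a median fold of 2.28, with 7 over 2-fold and 2 over 4-fold. The smallest called folds were 1.58 among the falls and 1.51 among the rises.

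The largest fall was that of cDN28P0003H11. Its levels were 4.94, 5.43, 5.08, 5.21 and 5.21 in LTE2 replicates 1 to 5 and 1.85, 1.78, 1.88, 2.04 and 1.48 in HTE2 replicates 1 to 5. All HTE2 fish, replicate 3 included, were near each other and far below all LTE2 fish. The means were 5.18 ± 0.18 (SD, n = 5) and 1.81 ± 0.20 (SD, n = 5), a difference of -3.37 (SE 0.18) on the log2 scale, or 10.3-fold, with a limma adjusted p of 7e-06. The difference on the 5 slides lay between -3.73 and -3.08. Its other probes differed by -3.37 and -3.35. Under all alternatives its difference ran from -3.60 to -2.32 and its limma adjusted p from 7.9e-07 to 0.0103, the latter after spike-in scaling, where it was the only member called lower.

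Another 3 called members fell more than 4-fold. cDN28P0007I09 stood at 3.23, 2.93, 2.97, 2.87 and 3.35 in LTE2 and at 1.28, 0.98, 1.42, -0.85 and 0.10 in HTE2. The LTE2 fish were close together and the HTE2 fish were spread out below them, with replicate 4 lowest. Its difference was -2.48 (SE 0.39), or 5.59-fold, with a limma adjusted p of 0.00484. cDN28P0006D18, whose mean level was the lowest of all members, stood at 0.70, 0.85, 0.78, 1.77 and 2.10 in LTE2 and at -1.60, -1.50, -0.61, -1.0 and -1.29 in HTE2. It was thus above the array's 75th percentile in each LTE2 fish and below it in each HTE2 fish. The difference was -2.44 (SE 0.32), or 5.42-fold, with a limma adjusted p of 0.00219. cDN28P0002D22 stood at 2.02, 2.71, 2.38, 2.94 and 3.18 in LTE2 and at 0.38, 0.018, 1.50, -0.22 and 0.10 in HTE2. HTE2 replicate 3 was the highest of its group and still below every LTE2 fish. The difference was -2.29 (SE 0.34), or 4.89-fold, with a limma adjusted p of 0.00391. These 3 members kept a difference below 0 after spike-in scaling (-1.44, -1.39 and -1.24) but were not called there, with limma adjusted p of 0.152, 0.169 and 0.23, the highest over their alternatives, whose lowest were 0.00132, 0.000847 and 0.000405.

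cDN28P0001G24 was among the brightest members as well as among the largest falls. Its levels were 5.24, 5.27, 5.52, 5.93 and 6.11 in LTE2 and 3.40, 3.51, 4.76, 3.40 and 3.65 in HTE2. Of the HTE2 fish 4 lay close together and replicate 3 lay above them, without reaching the LTE2 fish. The difference was -1.87 (SE 0.30), or 3.65-fold, with a limma adjusted p of 0.00504. cDN28P0004M22 stood at 1.72, 1.78, 1.08, 1.60 and 1.09 in LTE2 and at -0.18, -0.81, 0.47, -1.24 and 0.10 in HTE2, again without overlap and with HTE2 replicate 3 as the highest of its group. Its difference was -1.79 (SE 0.33), or 3.45-fold, with a limma adjusted p of 0.00884. cDN28P0005F09 stood at 1.51, 2.37, 1.59, 2.19 and 2.40 in LTE2 and at 0.22, -0.13, 1.69, -0.49 and 0.089 in HTE2. Here HTE2 replicate 3 lay within the LTE2 range and the other HTE2 fish below it. The difference was -1.74 (SE 0.38), or 3.33-fold, with a limma adjusted p of 0.014. None of these members was called after spike-in scaling, with limma adjusted p of 0.462, 0.519 and 0.551 in the order given. With array brightness as a covariate they were not called either (0.065, 0.112 and 0.112).

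A fall of the same size was less even among fish in cDN28P0006G08. It stood at 4.16, 2.81, 3.91, 4.05 and 3.03 in LTE2 and at 2.89, 1.41, 3.53, 0.34 and 0.86 in HTE2. HTE2 replicates 1 and 3 overlapped the LTE2 fish, and replicate 4 was the lowest. The difference was -1.79 (SE 0.58), or 3.45-fold, with a limma adjusted p of 0.044. It passed only without HTE2 replicate 1 or without HTE2 replicate 3, and leaving out any other fish gave a limma adjusted p between 0.0507 and 0.0931, within a range of 0.00774 to 0.519 over all alternatives. The mean of its 3 probes, of which the others were well above background on 1 array and on none, gave a difference of -1.14, and brightness as a covariate gave -1.12.

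Among the called members rises were fewer than falls. The largest rise was that of cDN28P0001E05, which stood at 0.68, -0.034, 2.42, -0.12 and -0.46 in LTE2 and at 3.31, 2.54, 0.63, 4.73 and 3.60 in HTE2. The groups crossed on slide 3, where the LTE2 fish was higher by 1.79, and stood far apart on the other slides. The means were 0.50 ± 1.15 (SD, n = 5) and 2.96 ± 1.52 (SD, n = 5), a difference of 2.47 (SE 0.73), or 5.52-fold, with a limma adjusted p of 0.0332. It passed only without LTE2 replicate 3 or without HTE2 replicate 3, and leaving out any other fish gave a limma adjusted p between 0.0536 and 0.0771, within a range of 3.92e-05 to 0.201 over all alternatives. With the slide as a block it was not called (limma adjusted p of 0.0754).

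cDN28P0006I04 showed the same order of fish. It stood at 1.54, 0.54, 3.41, 1.33 and 0.67 in LTE2 and at 4.12, 3.57, 1.95, 5.29 and 4.73 in HTE2. LTE2 replicate 3 was again the highest of its group and HTE2 replicate 3 the lowest of its own, and HTE2 replicate 4 was the highest fish of all. The difference was 2.43 (SE 0.66), or 5.40-fold, with a limma adjusted p of 0.0258, and its other probes differed by 2.44 and 2.45. The call was lost without LTE2 replicates 2, 4 or 5 or HTE2 replicates 1, 4 or 5 in turn (limma adjusted p between 0.0538 and 0.0621), within a range of 4.72e-05 to 0.17 over all alternatives. With the slide as a block it was not called either (0.0609).

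The remaining named rises were smaller. cDN28P0003O08 stood at 0.90, -0.68, 1.31, -0.032 and -0.0039 in LTE2 and at 2.27, 1.46, 1.68, 3.31 and 2.68 in HTE2, with every HTE2 fish above every LTE2 fish. Its difference was 1.98 (SE 0.44), or 3.95-fold, with a limma adjusted p of 0.014. cDN28P0002K09 stood at -0.21, -1.05, -0.11, -1.19 and -1.42 in LTE2 and at 1.29, 1.60, -0.29, 2.10 and 1.23 in HTE2. HTE2 replicate 3 was the only HTE2 fish below 0 and lay within the LTE2 range. The difference was 1.98 (SE 0.43), or 3.95-fold, with a limma adjusted p of 0.0135. cDN28P0004L14 stood at 0.44, 0.24, 0.65, -0.24 and -0.10 in LTE2 and at 1.84, 1.81, 0.43, 2.66 and 2.05 in HTE2, with HTE2 replicate 3 again inside the LTE2 range. Its difference was 1.56 (SE 0.37), or 2.95-fold, with a limma adjusted p of 0.0165.

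cDN28P0003F22 had narrow groups that did not overlap, at 0.93, 0.88, 1.45, 1.06 and 1.14 in LTE2 and 2.32, 1.81, 1.69, 2.63 and 2.14 in HTE2. Its difference was 1.02 (SE 0.22), or 2.03-fold, with a limma adjusted p of 0.0136. cDN28P0003G11 stood at -0.18, -0.11, 0.27, 0.10 and 0.11 in LTE2 and at 1.01, 0.66, 0.42, 1.69 and 0.66 in HTE2, also without overlap. Its difference was 0.85 (SE 0.25), or 1.80-fold, with a limma adjusted p of 0.0312. cDN28P0005I23 stood at 0.12, -0.61, 0.56, -0.17 and -0.20 in LTE2 and at 1.24, 1.13, 0.087, 2.51 and 1.52 in HTE2, where replicate 3 fell inside the LTE2 range. Its difference was 1.36 (SE 0.39), or 2.56-fold, with a limma adjusted p of 0.0309. The call of cDN28P0003G11 was lost without LTE2 replicates 1, 2, 4 or 5 or HTE2 replicates 1, 2 or 5 in turn (limma adjusted p between 0.0503 and 0.0697, over all alternatives 0.0115 to 0.333). That of cDN28P0005I23 was lost without LTE2 replicates 2, 4 or 5 or HTE2 replicates 1, 2 or 5 (limma adjusted p between 0.0573 and 0.0674, over all alternatives 0.00413 to 0.223). With the slide as a block neither was called, with limma adjusted p of 0.0597 for cDN28P0003G11 and 0.0609 for cDN28P0005I23. Brightness as a covariate gave cDN28P0003G11 a difference of 0.54. All 8 named rises had a difference above 0 under every scaling tried. Under spike-in scaling they could not turn, since it raised all differences by about the same amount.

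**Figure D3:**
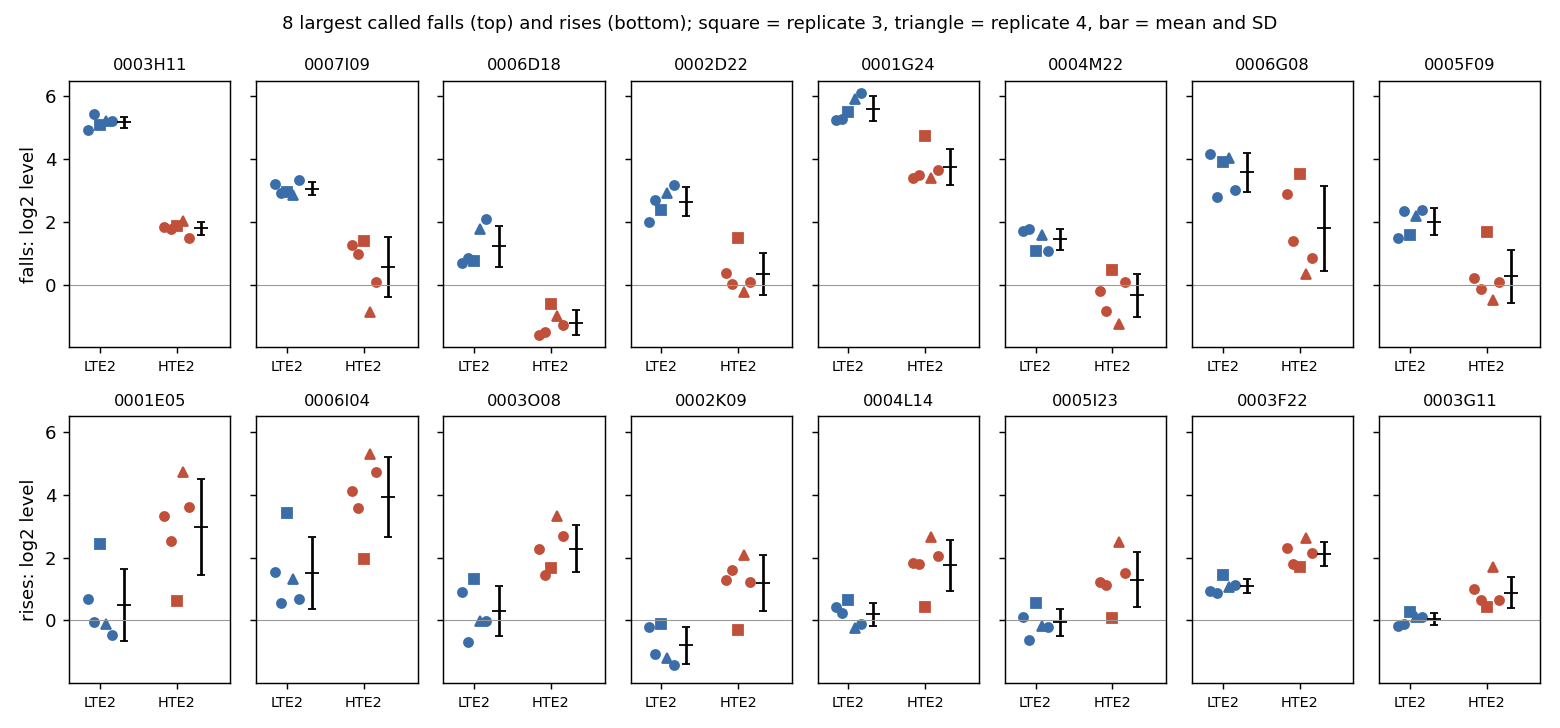
Log2 level of the 8 largest called falls (top) and rises (bottom) in each fish, LTE2 in blue and HTE2 in red, with squares for replicate 3, triangles for replicate 4, and the mean and SD (n = 5) beside the points. HTE2 replicate 3 lies toward the LTE2 fish in most panels, but not for cDN28P0003H11, whose HTE2 fish all lie between 1.48 and 2.04. All 16 kept their direction under every scaling. Spike-in scaling raises all differences by about the same amount. It could therefore turn no rise and only falls smaller than that amount. Of the falls, only cDN28P0003H11 was called after spike-in scaling.

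Among the 10 members with the highest levels, 4 were called and 6 were not. The share called was 25.3% of all tested transcripts and 30.4% of those that met the level rule. The count among these 10 was not tested. Besides cDN28P0001G24, the called ones were cDN28P0003M03, cDN28P0004O14 and cDN28P0005C03. cDN28P0005C03 stood at 4.57, 4.76, 4.43, 4.68 and 5.05 in LTE2 and at 3.76, 3.64, 4.27, 2.92 and 3.62 in HTE2. Every HTE2 fish was below every LTE2 fish, with a difference of -1.06 (SE 0.25), or 2.08-fold, and a limma adjusted p of 0.0166. After spike-in scaling its difference was -0.0083. cDN28P0004O14 stood at 4.85, 5.66, 4.91, 4.93 and 5.69 in LTE2 and at 4.18, 4.02, 4.54, 2.58 and 4.25 in HTE2. The groups did not overlap, and HTE2 replicate 4 lay far below the rest. The difference was -1.29 (SE 0.36), or 2.45-fold, with a limma adjusted p of 0.0279, and the call was lost without LTE2 replicates 2, 4 or 5 or HTE2 replicates 1 or 2 (limma adjusted p between 0.0505 and 0.0678, over all alternatives 0.0129 to 0.85). cDN28P0003M03, the member with the highest mean level, stood at 5.74, 5.19, 5.65, 5.87 and 5.68 in LTE2 and at 4.69, 5.21, 5.42, 4.06 and 4.75 in HTE2. The groups overlapped through LTE2 replicate 2 and HTE2 replicates 2 and 3. Its difference of -0.80 had a limma adjusted p of 0.0467, was 0.25 after spike-in scaling, and passed only without LTE2 replicate 2 or HTE2 replicate 3 (otherwise 0.058 to 0.103 on leaving out 1 fish, over all alternatives 0.0142 to 0.849). It was not called with the slide as a block (0.0888), and its difference was -0.49 with quantile normalization and -0.40 in the authors' deposited table, where it was not called.

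Of the 6 uncalled bright members, cDN28P0005M03 had 1 fish far above the rest. It stood at 4.38, 7.67, 4.25, 4.39 and 4.54 in LTE2 and at 4.24, 4.60, 4.55, 4.06 and 4.60 in HTE2. LTE2 replicate 2 was above the median of the other LTE2 fish by 3.29 with this probe and by 3.55 and 3.61 with the other probes of the transcript. The difference of -0.64 had a limma adjusted p of 0.411, and without LTE2 replicate 2 the difference was 0.020. cDN28P0003B01 stood at 4.69, 4.77, 4.48, 4.61 and 4.45 in LTE2 and at 4.18, 4.21, 4.07, 0.82 and 3.21 in HTE2. Every HTE2 fish was below every LTE2 fish, and HTE2 replicate 4 lay below the median of the other HTE2 fish in all of the transcript's probes, by 3.15 to 3.30. Its difference of -1.30 had a limma adjusted p of 0.102, and it was -0.68 both without HTE2 replicate 4 and with brightness as a covariate.

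cDN28P0001P01 was nearly level in all fish, at 3.91, 3.93, 3.67, 3.72 and 3.83 in LTE2 and 4.15, 4.16, 3.80, 3.87 and 3.80 in HTE2. Its difference of 0.14 had a limma adjusted p of 0.524. cDN28P0004B20 stood at 3.48, 3.62, 3.92, 3.81 and 3.96 in LTE2 and at 4.23, 3.94, 4.01, 4.78 and 4.46 in HTE2, with a difference of 0.53 and a limma adjusted p of 0.0828 (0.0333 to 0.501 over all alternatives, 0.0458 without HTE2 replicate 3). Only HTE2 replicate 2 reached into its LTE2 range. cDN28P0002O24 stood at 4.60, 4.97, 3.86, 4.21 and 4.29 in LTE2 and at 3.91, 3.76, 3.84, 2.24 and 3.16 in HTE2, with a difference of -1.01 (0.042 after spike-in scaling) and a limma adjusted p of 0.0507. It passed without LTE2 replicate 3 (0.0496), HTE2 replicate 3 (0.0319) or slide 3 (0.0296). It also passed with median centring (0.0494), the slide as a random block (0.0473), the eBayes trend (0.0396) and flagged spots kept (0.0487). The mean of probes (0.0478) and the filter for detection on all arrays (0.041) let it pass as well. Over all alternatives its limma adjusted p ran from 0.0296 to 0.976. cDN28P0001J05 stood at 3.98, 4.0, 4.30 and 4.80 in LTE2 replicates 1, 2, 4 and 5 and at 4.0, 3.70, 4.60, 1.56 and 3.88 in HTE2. Its spot on LTE2 replicate 3 was flagged as an outlier and left out, so the fit used 9 arrays, with a difference of -0.72 (0.39 after spike-in scaling) and a limma adjusted p of 0.311. Without HTE2 replicate 4 its difference was -0.23, with brightness as a covariate -0.26 and with normexp -0.47.

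The spread among fish of a group, as residual SD, had a median of 0.45 over the members (quartiles 0.31 and 0.63), beside 0.47 for all tested transcripts and 0.39 for all transcripts that met the same level rule. It was above 1 for 16 members and below 0.2 for 20. The most variable member was cDN28P0001C19, at 0.058, -0.52, 7.42, 2.70 and 1.89 in LTE2 and -1.46, -0.49, 3.30, 1.41 and 1.12 in HTE2. Replicate 3 was the highest fish in both groups, and the 3 probes of the transcript put LTE2 replicate 3 above the median of the other LTE2 fish by 6.44 to 6.75. cDN28P0004J03 stood at 4.35, 1.38, 0.42, -0.88 and -0.40 in LTE2 and at 1.58, 0.62, -0.56, -0.20 and -0.68 in HTE2. Its 4 probes put LTE2 replicate 1 above the median of the other LTE2 fish by 4.29 to 4.34.

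cDN28P0007L19 stood at 2.19, 2.05, 2.61, 3.62 and 3.14 in LTE2 and at 0.40, 1.37, 2.16, -2.83 and 1.32 in HTE2. Its difference of -2.24 was among the largest of the members. HTE2 replicate 4 lay far below the others, and the limma adjusted p was 0.0566. Without HTE2 replicate 4 the difference was -1.41 and passed at a limma adjusted p of 0.0419. It also passed without HTE2 replicate 3 (0.0239), without slide 3 (0.0389), with the eBayes trend (0.0475) and among transcripts detected on all arrays (0.0456), within a range of 0.0239 to 0.382 over all alternatives. cDN28P0002H06 stood at 3.27, 1.15, 3.75, 4.59 and 3.96 in LTE2 and at 2.24, 0.078, 4.04, 1.88 and 2.82 in HTE2, and replicate 2 was the lowest fish in both groups. At the other end, cDN28P0002B07 had a residual SD of 0.14, at 0.52, 0.35, 0.54, 0.44 and 0.52 in LTE2 and 1.16, 1.00, 0.72, 1.05 and 0.80 in HTE2. Its groups did not overlap, and its difference of 0.47 had a limma adjusted p of 0.0571 (0.013 to 0.27 over all alternatives, 0.0227 without HTE2 replicate 3). The other members with the smallest spread were cDN28P0007J11, cDN28P0001P01 and cDN28P0007G20, with residual SDs of 0.15, 0.15 and 0.17.

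HTE2 replicate 3 stood apart from the other HTE2 fish across the called members. Of the 43 called falls, 20 had a level in this fish above the lowest LTE2 fish, against 0 to 2 in each other HTE2 fish. Of the 12 called rises, 6 had a level in it below the highest LTE2 fish, against 0 or 1 in each other HTE2 fish. HTE2 replicate 4 was at the far end, with the lowest value of all 10 fish in 33 of the 43 called falls and the highest in 10 of the 12 called rises. The calls were made with these same fish, so these counts are a description.

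The slides, each holding 1 fish of either group, showed the same contrast. The median difference of the members was -0.47, -0.45, 0.076, -1.20 and -0.54 on slides 1 to 5, beside -0.27, -0.28, -0.03, -0.55 and -0.14 for all tested transcripts. Slide 3 was the only slide on which the members' median was above 0, and slide 4 the one on which it was lowest. The called falls had a slide median of -0.37 on slide 3 and between -1.95 and -0.87 on the others. The called rises had a slide median of -0.09 on slide 3 and between 1.28 and 2.13 on the others. All 5 slides put the HTE2 fish on the called side in 29 of the 43 falls and 5 of the 12 rises. The calls came from these same slides, so these values of the called members are a description. Called or not, 26.7% of the members were below 0 on all 5 slides, beside 21.6% of all tested transcripts. Above 0 on all 5 were 6.45%, beside 8.88%. On log2 scale the HTE2 array was brighter by 1.69, 0.836, 0.672, 1.03 and 0.104 on slides 1 to 5.

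**Figure D4:**
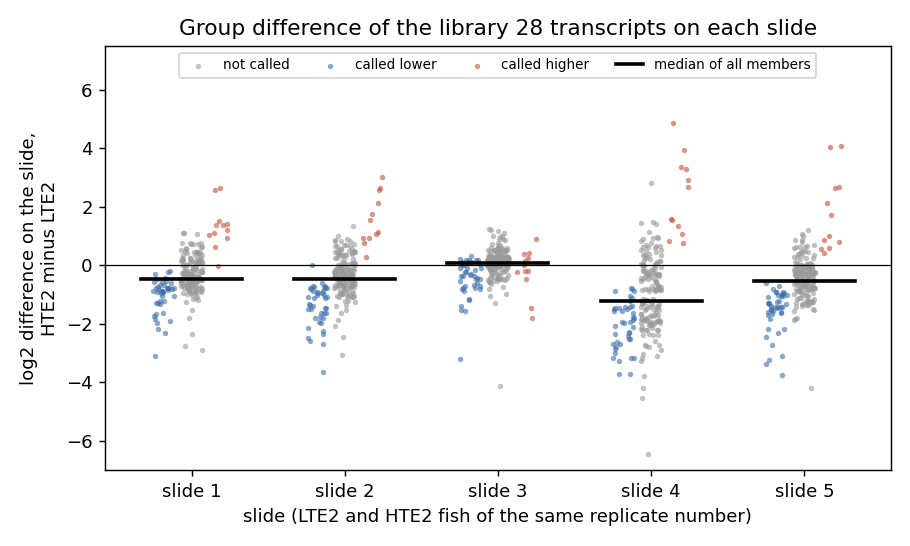
Log2 difference, HTE2 minus LTE2, of each member on each slide, with called falls in blue, called rises in red, uncalled members in grey and the median of all members as a bar. The medians lie between -1.20 (slide 4) and 0.076 (slide 3), all after 75th percentile scaling, under which 14 of the 43 falls have the opposite sign to spike-in scaling.

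The number of calls depended on which fish were used. Without LTE2 replicates 1 to 5 in turn, 34, 31, 35, 23 and 23 members were called. These are 15.7%, 14.3%, 16.1%, 10.6% and 10.6% of the members, beside 18.9%, 16.9%, 19.7%, 11.2% and 11.9% of all tested transcripts. Without HTE2 replicates 1, 2, 4 and 5 in turn, 25, 27, 33 and 27 members were called. These are 11.5%, 12.4%, 15.2% and 12.4% of the members, beside 12.1%, 13.6%, 16.5% and 14.8% of all tested transcripts. Without HTE2 replicate 3 the count was 113 (52.1% of the members), beside 41.4% of all tested transcripts, and it included all 55. In every other fit that left out a fish, the share was lower among the members than among all tested transcripts. Without both fish of slide 3 the count was 94 (43.3% of the members), beside 37.2%, with 18 higher and 76 lower beside 14.7% and 22.4%. Called in each of the 10 fits that left out a fish were 23 of the 55, or 10.6% of the members beside 9.9% of all tested transcripts. Of these 4 were higher and 19 lower, beside 4.62% and 5.28% of all tested transcripts. With the slide as a block, 30 members (13.8%) were called, 4 higher and 26 lower, beside 15.0% of all tested transcripts (5.82% higher, 9.15% lower). Of the 30, 28 were among the 55. All called members kept their direction without HTE2 replicate 3. That fish lay toward the LTE2 fish in many of them, so leaving it out could hardly turn a direction.

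The HTE2 array was the brighter one on every slide, so a fit with brightness as a covariate cannot fully separate brightness from group. With array brightness as a covariate, 4 members (1.84%) were called, all lower, beside 0.616% of all tested transcripts. They were cDN28P0003H11, cDN28P0006D18, cDN28P0004P22 and cDN28P0006L17, the last 2 being named here after their values were seen. cDN28P0004P22 stood at 0.12, 1.09, 1.04, 1.09 and 0.68 in LTE2 and at -0.45, -0.37, -0.14, -0.032 and -0.72 in HTE2. cDN28P0006L17 stood at 0.55, 1.55, 1.25, 1.58 and 1.21 in LTE2 and at 0.087, -0.71, -0.27, -0.29 and -0.49 in HTE2. In both the groups did not overlap, and HTE2 replicate 3 lay among the other HTE2 fish. Spike-in scaling left 10 members (4.61%) called, 9 higher and 1 lower, beside 12.5% of all tested transcripts (12.3% higher, 0.172% lower). Normexp background correction called 38 (17.5% of the members), 13 higher and 25 lower, beside 21.8% (5.61% higher, 16.2% lower). There the share called lower was smaller among the members than among all tested transcripts. In the authors' deposited table the same test called 61 members (28.1%), 18 higher and 43 lower, beside 24.6% (11.7% higher, 12.9% lower). Of these 61 members, 51 were among the 55.

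Different probes of the same member gave like differences. For 83 members a total of 163 other probes could be tested, and 154 of them (94.5%) had the same sign as the brightest probe. The median gap between an other probe's difference and that of the brightest probe was 0.047 in log2 units. For the 20 called members with other probes, all 38 other probes had the same sign and 36 were called in the fit of all probes, which called 27.8% of all probes tested. The gap exceeded 1 in 2 members, chosen here after their values were seen. The brightest probe of cDN28P0007P23 gave 0.54 and its others -0.81 and -0.29, and that of cDN28P0007K20 gave -0.30 and its other 0.91. Neither member was called. Probes of a transcript share the fish and the array, so they bear on the probe and not on the fish.

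Called members were spread over levels and plates. Members were split into 4 classes of about equal size, from the lowest to the highest mean level. In these 14, 10, 13 and 18 were called, or 25.5%, 18.5%, 24.1% and 33.3%. The median differences were -0.37, -0.55, -0.50 and -0.65. The share called was 25.3% of all tested transcripts and 30.4% of those that met the level rule. It was not computed by level class or plate for other transcripts. On plates 1 to 7 the called members numbered 6, 5, 8, 11, 7, 10 and 8 of 27, 27, 28, 29, 34, 33 and 39. Plate 3 was the only plate with more rises than falls, 5 against 3, and every other plate had 1 or 2 rises against 4 to 9 falls. The 5 rises included cDN28P0003O08, cDN28P0003F22 and cDN28P0003G11, and the 3 falls included cDN28P0003H11. The plate counts are small and were not tested.

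Library 28 transcripts that did not meet the level rule leaned the same way. Of 525 that could be tested, 96 were lower (18.3%) and 19 higher (3.62%) in HTE2, with a median difference of -0.47. Of all tested transcripts 14.6% were lower and 10.7% higher. The share called in either direction was 21.9% of the 525, beside 25.3% of all tested transcripts. The abundant transcripts of library 33, chosen by the same level rule, numbered 194, the closest to library 28 in number among the clone libraries. Of these 44 were lower (22.7%) and 18 higher (9.28%), beside 19.8% and 5.53% of the library 28 members. Their median difference was -0.36. Over all 3073 transcripts that met the level rule, 537 were lower (17.5%) and 396 higher (12.9%), with a median of -0.27. Among the 14 clone libraries and the contigs, taken by this rule, library 28 had the lowest median difference, and the others ran from -0.44 to 0.48. That order was not tested and is given for 75th percentile scaling. The share called lower was not highest in library 28 but in library 27, at 24.4%. Spike-in scaling moves all transcripts of an array by the same amount, so it leaves the distances between libraries nearly unchanged. The order was not computed with normexp correction.

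**Figure D5:**
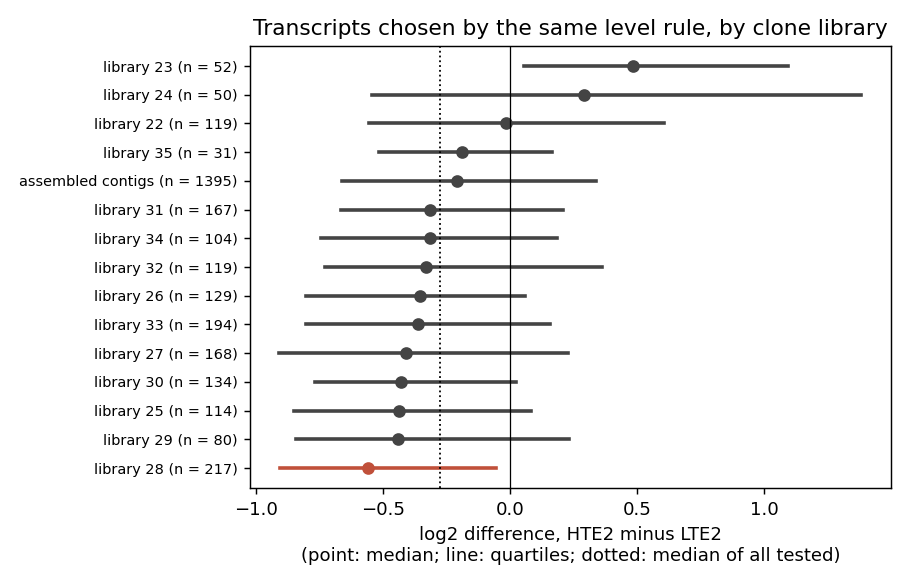
Median (point) and quartiles (line) of the log2 difference, HTE2 minus LTE2, for transcripts chosen by the same level rule in each clone library and among the contigs, with library 28 in red and the median of all tested transcripts (-0.27) dotted. Library 28 has the lowest median (-0.56) under 75th percentile scaling. Spike-in scaling moves the library 28 median to 0.49, and it moves the other libraries by about the same amount.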

How the data were processed

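Gonad RNA of 10 fish was measured on 1-colour Agilent arrays. The deposited scanner files hold intensities made by Feature Extraction 10.7.3.1, background-subtracted and detrended within the array, per the file headers. The authors' deposited value table is on a log2 scale, and the sources used here do not state its normalization. Agilent Feature Extraction and limma are named, without versions, per the submitters' processing notes.

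The 1417 control spots and, for the values, spots flagged as outliers were left out. The log2 processed intensity was set against the 75th percentile of the array's non-control spots and averaged per probe, and the probe with the highest mean stood for its transcript. A transcript was tested when, on 5 or more of 10 arrays, at least 50% of that probe's spots were well above background, which kept 9909. The test was limma 3.58.1 in R 4.3.3 (lmFit, eBayes, two-sided, group only), with Benjamini-Hochberg adjustment over all 9909 and a threshold of 0.05. The fit was tested on simulated data with independent noise for each transcript. That simulation held no effect of slide, place or brightness, so it does not bear on these effects. Each replicate is 1 fish, and the number of arrays limits the precision. Slide and place were read from the file headers. The slide was not part of the main test and entered only in alternative fits, as a block. Figures were drawn with matplotlib 3.10.9.

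The members, the lists and the tests were chosen with earlier results of these data known. Named members were the 10 with the highest level, the 8 largest called rises and falls, the 4 with the largest and the 4 with the smallest residual SD, and those nearest the level limits. Planned gene and marker lists were not matched, since no gene symbols were used here. Normexp correction (offset 50) used median spot and background intensities, since the files hold no column of mean spot intensity. The authors' table with the slide as a block was an alternative added after the data were seen. Other alternatives were other scalings, filters, probe rules, a trend in eBayes, brightness as a covariate and leaving out fish.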

Additional observations from a re-analysis of the deposited data

Results flagged for a closer look

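In groups of 5 fish, a value was singled out when its gap to the nearest other fish was large for the range of its group. Among 72 groups screened, 4 such values were found, and chance gives about 1 in 20. cDN28P0005M03 stood at 7.67 in LTE2 replicate 2, with the next LTE2 fish at 4.54. cDN28P0001G24 stood at 4.76 in HTE2 replicate 3, with the next HTE2 fish at 3.65. cDN28P0004O14 stood at 2.58 in HTE2 replicate 4, with the next HTE2 fish at 4.02. The log2 75th percentile intensity of the array of LTE2 replicate 1 was 7.86, with the next LTE2 array at 9.0.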

How the results depend on the processing

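The members' count of 55 calls became 30 with the slide as a replicate block (4 higher, 26 lower; 1484 of all transcripts), 10 with spike-in scaling (9 higher, 1 lower; 1240), 4 with brightness as a covariate (0 higher, 4 lower; 61) and 94 without slide 3 (18 higher, 76 lower). Normexp gave 38, with 13 higher and 25 lower, beside 2165 of all transcripts. The authors' deposited table with the slide as a replicate block gave 37, with 7 higher and 30 lower. These are 17.1% of the members, beside 12.9% of all transcripts (1255 called in either direction). Testing all probes, which counts probes in place of transcripts, gave 98 of 380 member probes (22 higher, 76 lower; 5584 of all probes). Leaving out 1 fish gave 23 to 113 called, 4 to 23 higher and 19 to 90 lower, with 1107 to 4107 of all transcripts. Quantile normalization, median centring, the authors' table, the slide as a random block, the filters, the mean of probes, flagged spots kept and the eBayes trend kept the members' count within 1.5 times. The members' median of -0.56 lay between -0.69 and -0.37 on leaving out 1 fish and at -0.32 with brightness as a covariate. Spike-in scaling turned it to 0.49 and moved the median residual SD to 0.91. The causes of these changes were not tested.

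Signs turned for some named members, none of them a fall or rise named among the 8 largest. With spike-in scaling the differences were 0.39 for cDN28P0001J05, 0.042 for cDN28P0002O24, 0.25 for cDN28P0003M03, 0.23 for cDN28P0004J03, 0.10 for cDN28P0004L04, 0.41 for cDN28P0005M03, 0.97 for cDN28P0007G20 and 0.98 for cDN28P0007J11. Normexp gave 0.086 for cDN28P0007G20 and 0.10 for cDN28P0007J11. cDN28P0004J03 was at 0.91 with brightness as a covariate and at 0.023 without LTE2 replicate 1 (between -1.28 and 0.023 on leaving out any 1 fish), and cDN28P0005M03 at 0.020 without LTE2 replicate 2 (between -0.84 and 0.020).

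Fish with the same replicate number share a slide and no stated origin. Their deviations from the group means correlated across transcripts at 0.390, 0.288, -0.272, 0.0410 and 0.147 for numbers 1 to 5. The main test did not pair fish by number, whereas the fit with the slide as a replicate block did so through the shared slide.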
